A study of Mus musculus with 2 samples.

Results

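Axon guidance ligands and receptors were examined in 3D cultures grown from mammary basal cells, with and without M2-like macrophages. The genes were taken by name from the deposited count table: semaphorins, ephrins, Slits and netrins as ligands, and plexins, neuropilins, Eph, Robo and Unc5 receptors as receptors, together with Dcc, Neo1, Dscam, Dscaml1, Plxdc1 and Plxdc2. The names matched 76 of 49492 genes, namely 34 ligands, 39 receptors and 3 antisense RNAs of Plxna4. Of these 76 genes, 60 had at least 10 reads summed over both libraries and were tested, and 16 were not.

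The basal cells were primary epithelial cells of wild-type (WT) mice, sorted from mammary glands of adult females and seeded in a matrix gel. The control library (ctrl) came from colonies grown from basal cells that received no treatment. The other library (M2) came from colonies and organoids grown from basal cells that shared their medium with M2-like macrophages. By flow cytometry, the paper reports mostly luminal cells in such cultures of both kinds, with a larger basal share under co-culture. The libraries are therefore not of basal cells alone. The 3D medium contained EGF. The macrophages were derived from bone marrow of C57/B6 mice, polarised with Il-4 and Il-13 and held in an insert behind a porous membrane. The strain of the basal cell donors is not given in the labels, and each group holds 1 library, so the spread between cultures is unknown for every difference given here.

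Axon guidance molecules were found in the nervous system, where they attract or repel growing axons, and the same molecules act between epithelial cells. Semaphorins signal through plexins, and the secreted class 3 semaphorins use neuropilins as binding partners. Ephrins sit in the membrane and bind Eph receptor tyrosine kinases on the neighbouring cell, with signals running into both cells. Slits are secreted ligands of Robo receptors, and netrins bind Dcc, Neo1 (neogenin) and Unc5 receptors. In the mammary gland, Slit2 and Robo1 are known for adhesion between basal and luminal layers and for restraint of branching, Ntn1 and Neo1 for holding the layers of the terminal end bud together, and Ephb4 with Efnb2 for epithelial patterning.

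The ctrl library held 26912610 reads in genes and the M2 library 29413844. The axon guidance genes took 0.275% of the ctrl reads (95% Wilson interval 0.273 to 0.277) and 0.228% of the M2 reads (0.226 to 0.230). Basal epithelium markers were abundant in both libraries, with 81991 and 68968 reads of Krt14 and 56383 and 83619 reads of Krt5, and luminal keratins such as Krt8 (29888 and 36348 reads) were also present. All intervals given here cover counting error only.

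Robo receptors, Nrp2 and Plxnd1 had more reads in the M2 library, whereas Dscam, Epha3, Plxna4, ephrin-A ligands and several Eph receptors had fewer. A gene was called when its reads differed between the libraries at an adjusted p under 0.05 (two-sided exact binomial test, Benjamini-Hochberg adjustment over all genes tested) and by at least 2-fold. By this rule 19 of the 60 genes tested were called (31.7%), against 14.7% of all 19233 genes tested. Higher in M2 were 6 genes, against 8.16% of all genes, and lower were 13 genes (21.7%, against 6.55% of all genes). The median log2 difference, M2 over ctrl, was -0.34 over the 60 genes and -0.0032 over all genes tested. The quartiles of the 60 genes were -0.94 and 0.35, against -0.32 and 0.35 over all genes. The 2 sets were not matched for exon length, with medians of 6652 bases over the 60 genes and 3243 over all genes tested. Without the fold threshold, 45 of the 60 genes and 10221 of the 19233 had an adjusted p under 0.05 (exact binomial test). The test compares the 2 libraries and not the conditions, and members of 1 family are not replicates.

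**Figure D1:**
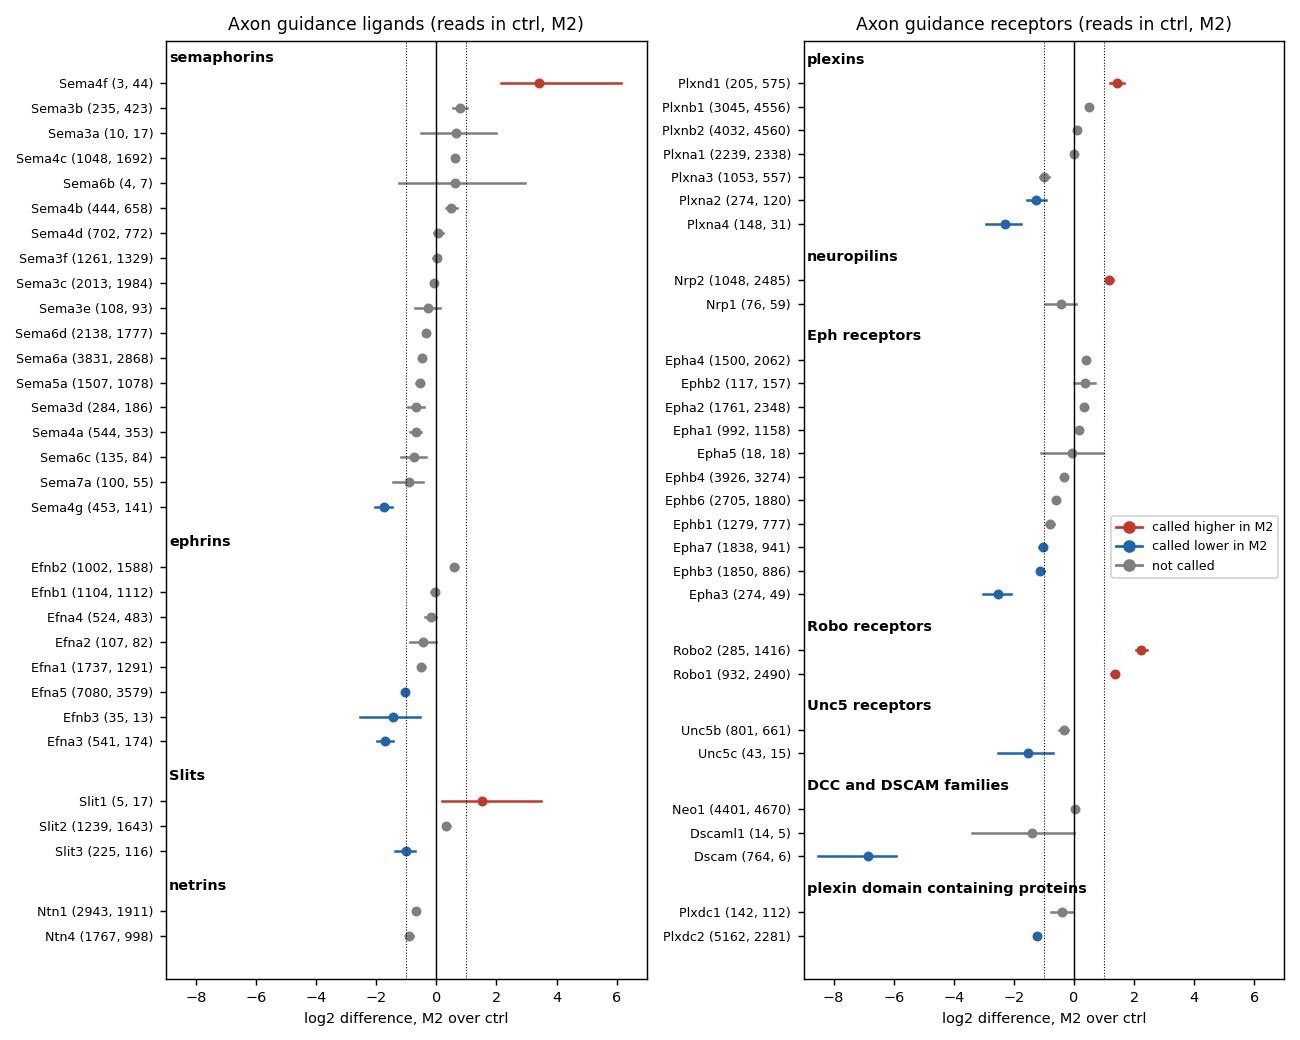
Log2 difference (M2 over ctrl, x axis) of the 31 ligands and 29 receptors tested, by family, with the reads of each gene in ctrl and M2 beside its symbol. Points are differences with a pseudocount of 1 read, bars are 95% Clopper-Pearson intervals, and dotted lines mark a 2-fold difference; both Robo receptors lie above 1 and Dscam stands at -6.84.

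**Figure D2:**
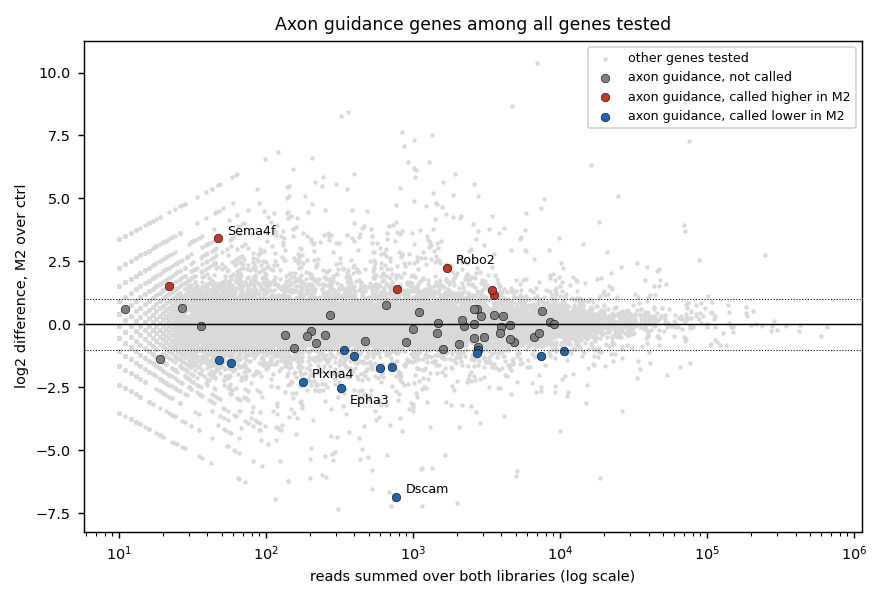
Log2 difference (M2 over ctrl, y axis) against the reads summed over both libraries (log x axis) for the 19233 genes tested in grey, with the 60 axon guidance genes as larger points. Most axon guidance genes lie between the dotted 2-fold lines, 13 called genes lie below them and 6 above.

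The calls depend on how much cultures vary, which 1 library per group cannot show. When edgeR's exactTest was given a biological coefficient of variation of 0.2, an assumed value, 10 of the 60 genes passed both thresholds, against 8.61% of all genes: Sema4f, Plxnd1, Robo1 and Robo2 in the higher direction, and Sema4g, Efna3, Plxna4, Epha3, Dscam and Plxdc2 in the lower. With 0.4, Dscam alone passed, against 1.59% of all genes.

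The 5' flanks of both Robo genes, which rose together, and of Dscam and Epha3, the genes with the lowest log2 differences, are printed from RefSeq (GRCm38.p6). Each runs 5' to 3' from 250 bases before the annotated start to 50 bases after it, on the strand of the gene, with CG dinucleotides in capitals. Robo1 lies at chr16:72662899-72663198 on the plus strand, Robo2 at chr16:74411776-74412075, Dscam at chr16:97170686-97170985 and Epha3 at chr16:63864126-63864425, the last 3 on the minus strand.

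Robo1: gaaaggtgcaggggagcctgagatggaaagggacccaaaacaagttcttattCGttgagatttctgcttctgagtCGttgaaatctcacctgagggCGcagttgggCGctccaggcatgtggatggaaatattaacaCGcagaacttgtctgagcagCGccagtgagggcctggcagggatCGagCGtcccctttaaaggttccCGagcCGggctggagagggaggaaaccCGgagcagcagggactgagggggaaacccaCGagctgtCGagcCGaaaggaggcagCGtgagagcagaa

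Robo2: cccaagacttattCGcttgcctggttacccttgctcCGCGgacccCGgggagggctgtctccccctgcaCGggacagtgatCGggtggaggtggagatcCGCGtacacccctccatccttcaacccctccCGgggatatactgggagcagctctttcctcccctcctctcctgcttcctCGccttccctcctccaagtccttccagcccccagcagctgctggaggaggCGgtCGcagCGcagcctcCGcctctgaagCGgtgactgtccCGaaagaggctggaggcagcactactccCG

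Dscam: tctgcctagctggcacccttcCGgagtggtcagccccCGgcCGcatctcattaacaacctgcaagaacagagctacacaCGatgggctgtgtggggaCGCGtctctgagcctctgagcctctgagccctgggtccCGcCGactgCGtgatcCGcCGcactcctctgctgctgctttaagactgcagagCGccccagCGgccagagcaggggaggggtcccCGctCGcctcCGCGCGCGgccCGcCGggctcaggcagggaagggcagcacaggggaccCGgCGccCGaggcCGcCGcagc

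Epha3: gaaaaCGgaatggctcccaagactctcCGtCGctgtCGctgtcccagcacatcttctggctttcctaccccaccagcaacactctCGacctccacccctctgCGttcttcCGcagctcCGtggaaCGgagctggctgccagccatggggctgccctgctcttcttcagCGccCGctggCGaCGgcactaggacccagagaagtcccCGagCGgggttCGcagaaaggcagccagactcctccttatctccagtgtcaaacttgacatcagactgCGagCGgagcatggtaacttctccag

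These windows hold 15, 17, 26 and 18 CG dinucleotides in the order printed. Of the 76 axon guidance genes, 60 had a promoter in RefSeq, which are not the same 60 as those tested. With 1 window per gene, their median was 22.5, against 7 over 32851 RefSeq promoter windows of the same length. The latter can hold several starts of a gene, so the 2 medians are not fully alike. The words TGANTCA (the AP-1 site), ACGTG (the core of the hypoxia response element) and TATAAA (the TATA box), searched on both strands, were in none of the printed windows. They were found in 1, 9 and 2 of the windows of the 60 genes with a promoter (1.67%, 15.0% and 3.33%) and in 7.81%, 19.6% and 13.6% of all windows. Robo2 has 3 starts in RefSeq, and the one that matches the count table is shown. Which start the cells used was not measured.

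Of the ligands, 20 were semaphorins. Among the 18 tested, 1 rose, 1 fell and 16 were not called, with a median of -0.19. The share called was 11.1%, near the 14.7% of all genes. Sema4f, a membrane-bound semaphorin, had 3 reads in the ctrl library and 44 in the M2 library, which is 3.42 on the log2 scale (95% interval 2.16 to 6.14; adjusted p = 1.70e-09 by the exact binomial test). It was nearly undetected in ctrl and low in M2. Sema4g, on chromosome 19 from 44989101 to 45003397, fell from 453 to 141 reads (log2 difference -1.75, interval -2.04 to -1.48). Sema6a, a transmembrane ligand of A-type plexins, had 3831 and 2868 reads (log2 difference -0.49, interval -0.56 to -0.42) and was not called. Its level of 41.3 TPM (a transcript level that corrects for exon length and depth) was the highest of the family in ctrl, and it stood at 28.6 TPM in M2. Sema4c, a ligand of Plxnb2, had 1048 and 1692 reads (log2 difference 0.62, interval 0.51 to 0.73) and was not called, and its 32.2 TPM in M2 was the highest level of the family there.

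The secreted class 3 semaphorins differed little in sum. Sema3c had 2013 reads in the ctrl library and 1984 in the M2 library, Sema3f had 1261 and 1329, and the class 3 genes together had 58.7 and 57.4 TPM. Sema3b, with 235 and 423 reads, and Sema3d, with 284 and 186, had log2 differences of 0.78 and -0.68 and were not called. Sema3e, the ligand of Plxnd1, had 108 and 93 reads. Of the other semaphorins, Sema5a, Sema6d, Sema4a, Sema6c and Sema7a had values from -0.92 to -0.34 and were not called, and Sema4b (0.50) and Sema4d (0.07) were not called either. Sema3a (10 and 17 reads) and Sema6b (4 and 7 reads) had log2 intervals that included 0 and reached past 2-fold.

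Ephrin-A ligands, which are held in the membrane by a lipid anchor, were lower in the M2 library. Their summed reads were 9989 in ctrl and 5609 in M2, which gives a log2 ratio of -0.90 (95% interval -0.95 to -0.85), and their summed level was 313 and 175 TPM. Each of the 5 ephrin-A genes had a negative value, and 2 were called lower (40%, against 6.55% of all genes). Efna5, on chromosome 17 from 62604184 to 62881317, had the highest level of the axon guidance genes in both libraries, with 166 TPM in ctrl and 77.7 in M2. Its reads fell from 7080 to 3579, a difference of -1.05 (-1.11 to -0.995), just past the 2-fold threshold, with an interval that includes it. Efna3, on chromosome 3 from 89313899 to 89322965, fell from 541 to 174 reads (log2 difference -1.70, interval -1.96 to -1.46). Of its exon length, 14.1% is shared with Gm15998 on the opposite strand, whose own reads were 226 and 69, and the use of strand in the counting is not stated, so reads of the pair cannot be told apart. Efna1 had 1737 and 1291 reads (log2 difference -0.50, interval -0.60 to -0.39), while Efna4 and Efna2 had values of -0.19 and -0.45, and these 3 genes were not called.

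The transmembrane ephrin-B ligands had 45.2 TPM in ctrl and 48.8 in M2. Efnb1, at 30.3 and 28.2 TPM, had a log2 difference of -0.06. Efnb2, the ligand of Ephb4, had 1002 and 1588 reads (log2 difference 0.59), and was not called. Efnb3 was low and fell from 35 to 13 reads (log2 difference -1.43, interval -2.54 to -0.54).

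Both netrins with reads had negative values and neither was called. Ntn1 had 2943 reads in the ctrl library and 1911 in the M2 library, which is -0.69 on the log2 scale (-0.78 to -0.61). Ntn4, a netrin of basement membranes that binds laminins, had 1767 and 998 reads (log2 difference -0.89, interval -1.01 to -0.78). Together they stood at 89.1 TPM in ctrl and 49.99 in M2.

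Among the Slits, Slit2 was the main member, with 56.2% of the family's TPM in ctrl and 74.6% in M2. Its reads were 1239 and 1643, a log2 difference of 0.34 (0.23 to 0.45), and it was not called. Slit3 fell from 225 to 116 reads (log2 difference -1.02, interval -1.36 to -0.70), close to the 2-fold threshold. Slit1 had 5 and 17 reads. Its difference of 1.52 (0.20 to 3.49; adjusted p = 0.0345 by the exact binomial test) passed the rule, but not when edgeR's exactTest was given an assumed variation of 0.1 between cultures.

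Of the receptors, Robo1 and Robo2 both rose. Robo1, on chromosome 16 from 72663149 to 73046095, had 932 reads in the ctrl library and 2490 in the M2 library, which is 1.35 on the log2 scale (95% interval 1.24 to 1.46; adjusted p = 1.26e-144 by the exact binomial test). Robo2, on chromosome 16 from 73892306 to 74411825, had 285 and 1416 reads (log2 difference 2.24, interval 2.06 to 2.43; adjusted p = 5.68e-167). Per length, Robo1 stood at 11.7 TPM in ctrl and 28.8 in M2, and Robo2 at 1.63 and 7.50, so Robo1 was the higher of the pair in both libraries. By TPM, Robo1 moved from place 30 to place 10 among the axon guidance genes. Robo3 (2 and 4 reads) and Robo4 (2 and 1 reads), the latter a receptor of endothelial cells, were hardly detected. Summed over the family, Robo levels were 13.4 and 36.4 TPM, whereas the Slits stood at 8.20 and 7.58 TPM. The summed reads of the Slits went the other way, from 1469 to 1776, giving a log2 ratio of 0.20 (0.10 to 0.31), since TPM divides by exon length, which is 6067 bases for Slit3 and 25433 for Slit2.

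Among the plexins, the A type and the B type went different ways in sum. The 4 plexin-A genes had 38.6 TPM in ctrl and 29.6 in M2, and 2 of them fell (50%, against 6.55% of all genes). Plxna4, on chromosome 6 from 32144268 to 32588192, a receptor of class 3 and class 6 semaphorins, fell from 148 to 31 reads (log2 difference -2.29, interval -2.93 to -1.76). Plxna2 fell from 274 to 120 reads (log2 difference -1.25, interval -1.58 to -0.95). Plxna3 had 1053 and 557 reads and stayed just inside the 2-fold threshold at -0.99, while Plxna1, with 2239 and 2338 reads, had a value of -0.0068. The plexin-B genes had 83.7 and 97.7 TPM. Plxnb2, the plexin with the highest level, had 4032 and 4560 reads (log2 difference 0.11, interval 0.05 to 0.17), and Plxnb1 had 3045 and 4556, a difference of 0.51 (0.45 to 0.58). Neither was called. Plxnd1, on chromosome 6 from 115954811 to 115995005, rose from 205 to 575 reads (log2 difference 1.41, interval 1.19 to 1.66).

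The neuropilins, which also bind vascular endothelial growth factors, were represented mainly by Nrp2. Nrp2, on chromosome 1 from 62703285 to 62818695, rose from 1048 to 2485 reads, which is 1.18 on the log2 scale (95% interval 1.07 to 1.28). Nrp1 had 76 and 59 reads (log2 difference -0.43, interval -0.95 to 0.08). Nrp2 made up 91.9% of the neuropilin TPM in ctrl and 97.2% in M2.

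Eph receptors were the receptor family with the highest summed level, 294 TPM in ctrl and 229.9 in M2. Of 11 tested, 0 rose, 3 fell and 8 were not called, so that 27.3% were called, against 14.7% of all genes in either direction and 6.55% in the lower one. Epha3, on chromosome 16 from 63543538 to 63864158, fell from 274 to 49 reads, which is -2.53 on the log2 scale (95% interval -3.02 to -2.11). Ephb3, on chromosome 16 from 21204755 to 21223305, fell from 1850 to 886 reads (log2 difference -1.13, interval -1.25 to -1.02), and Epha7 from 1838 to 941, a difference of -1.03 (-1.15 to -0.92). Ephb4 had the highest level of the family in both libraries, and Ephb6, a member without kinase activity, came next in ctrl. Ephb4 had 3926 and 3274 reads (log2 difference -0.33, interval -0.40 to -0.26), and Ephb6 had 2705 and 1880, a difference of -0.59 (-0.68 to -0.51). Ephb1, at -0.79, was not called.

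The EphA genes had values of both signs. Epha2 had 1761 and 2348 reads (log2 difference 0.35), and Epha4 had 1500 and 2062 (0.39). Epha1 had 992 and 1158 reads (0.15), and none of these 3 genes was called. The 9 EphA genes together had 6386 reads in the ctrl library and 6578 in the M2 library, giving a log2 ratio of -0.03 (95% interval -0.08 to 0.02), and Epha2 had the highest level among them in both libraries, at 35.7 and 44.0 TPM. The 5 EphB genes had 9877 and 6974 reads, a ratio of -0.57 (-0.62 to -0.53). Ephb2 (117 and 157 reads) and Epha5 (18 and 18 reads) were not called.

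Dscam showed the largest difference of the 60 genes tested. Dscam, on chromosome 16 from 96592079 to 97170752, a homophilic adhesion molecule of the immunoglobulin superfamily that also binds netrins, fell from 764 to 6 reads, which is -6.84 on the log2 scale (95% interval -8.51 to -5.93; adjusted p = 2.57e-224 by the exact binomial test). Its level was 9.65 TPM in ctrl and 0.0700 in M2. Its paralog Dscaml1 had 14 and 5 reads and was not called (adjusted p = 0.0679, exact binomial test). Neo1, in contrast, had 4401 and 4670 reads (log2 difference 0.02, interval -0.04 to 0.08), and Dcc had 0 reads in both libraries. With no read counted, a level of up to 0.109 CPM in ctrl and 0.104 in M2 (3 reads) remains possible.

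Unc5b was the main Unc5 receptor, with 801 reads in ctrl and 661 in M2, which is -0.35 on the log2 scale (-0.50 to -0.20). Unc5c fell from 43 to 15 reads (log2 difference -1.53, interval -2.54 to -0.71). Plxdc2, on chromosome 2 from 16356304 to 16755839, a transmembrane protein with a plexin repeat, fell from 5162 to 2281 reads (log2 difference -1.25, interval -1.32 to -1.18). Its level went from 70.4 to 28.7 TPM, and its relative Plxdc1 had 142 and 112 reads (log2 difference -0.41, interval -0.78 to -0.04) and was not called.

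**Figure D3:**
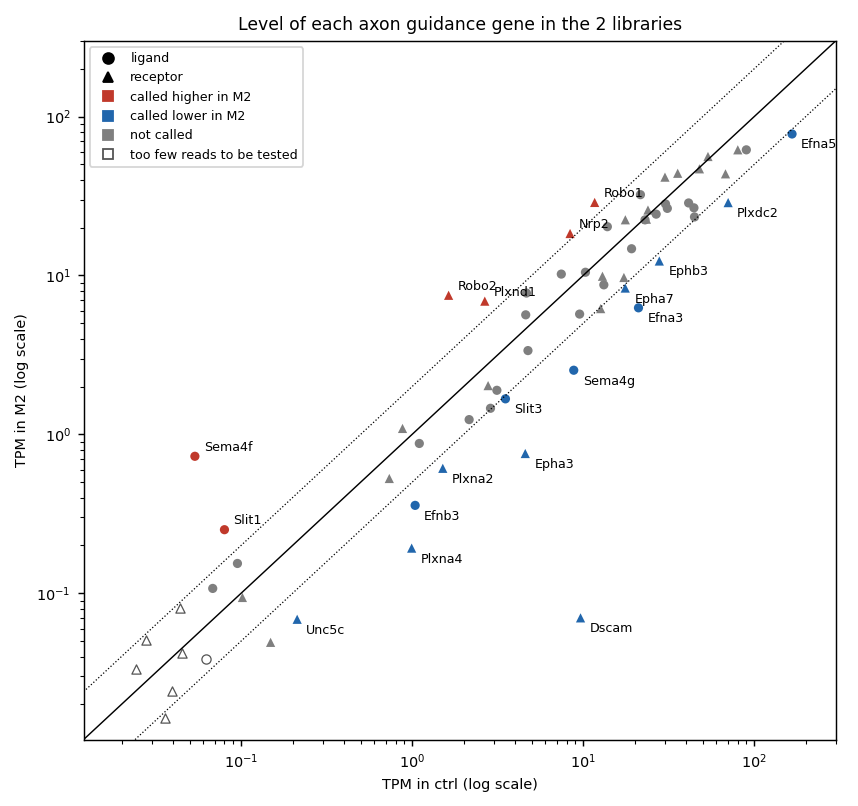
Level of each axon guidance gene with reads in both libraries, as TPM in ctrl (x axis) and in M2 (y axis), both on log scales; the solid line marks equal levels and the dotted lines a 2-fold difference. Dscam lies farthest from the line, at 9.65 and 0.0700 TPM, while Efna5 has the highest level in both libraries.

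The genes that were not tested included 6 with 0 reads in both libraries: Ntn5, Epha6, Epha8, Dcc and the antisense RNAs Plxna4os1 and Plxna4os2. The remaining 10 (Sema3g, Sema5b, Plxnb3, Plxnc1, Epha10, Robo3, Robo4, Unc5a, Unc5d and Plxna4os3) had at most 6 reads in either library. Of the 60 genes tested, 4 reached 10 reads in only 1 library (Sema4f, Slit1, Dscam and Dscaml1), so they entered the test through the library where they were higher. Exons of some genes overlap another gene on the opposite strand, among them 10.7% of the length of Plxna1, 10.5% of Efna4, 7.27% of Sema4c and 6.01% of Epha1. The partner of Plxna1 had 343 and 396 reads, that of Efna4 580 and 388, and that of Sema4c 84 and 161. The partner of Epha1 is Zyx, with 3542 and 4966 reads. Of the 19 called genes, 4 had under 50 reads in each library (Sema4f, Efnb3, Slit1 and Unc5c), so their fold changes are imprecise.

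Set side by side, the summed levels of ligands and receptors of the same system were as follows. Ephrin-A ligands went from 313 to 175 TPM while EphA receptors stood at 99.6 and 101 TPM. In the B class the ligands stood at 45.2 and 48.8 TPM and the receptors at 194 and 128 TPM. Netrins went from 89.1 to 49.99 TPM, and their receptors Neo1, Dcc and Unc5 summed to 61.0 and 56.9 TPM. Dscam, which also binds netrins, is not in this sum and went from 9.65 to 0.0700 TPM. For Slits and Robo receptors, and for class 3 semaphorins and neuropilins, the TPM sum of the ligands was slightly lower in M2 and that of the receptors was higher. The summed reads of the Slits were instead higher in M2 (log2 ratio 0.20, interval 0.10 to 0.31). Those of the class 3 semaphorins had a ratio of -0.03, with an interval that included 0 (-0.09 to 0.04). These sums are descriptions of 2 libraries, and no test of a difference between systems was made.

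**Figure D4:**
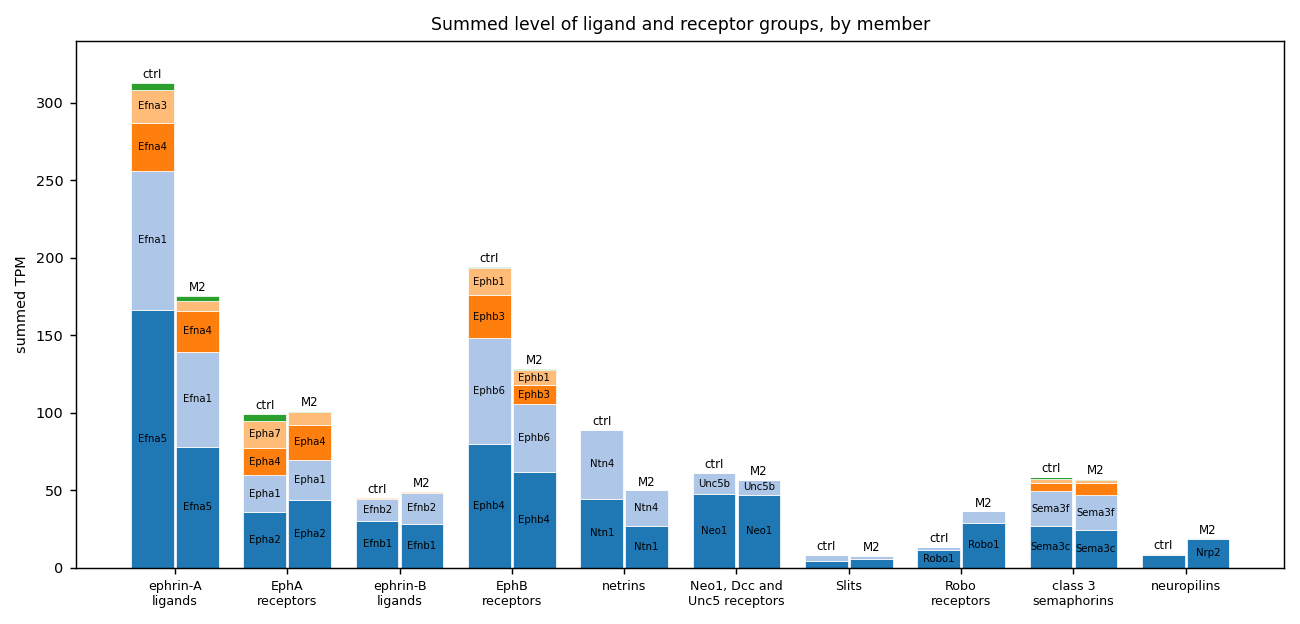
Summed TPM (y axis, from 0) of ligand and receptor groups in ctrl (left bar of each pair) and M2 (right bar), divided by member; members above 9 TPM are named. The ephrin-A bar goes from 313 to 175 TPM and the Robo bar from 13.4 to 36.4 TPM.

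To examine the machinery below these receptors, 53 downstream effectors were counted, of which 51 were tested. Of these, 3 rose, 4 fell and 44 were not called (13.7% called, against 14.7% of all genes), and the median log2 difference was -0.07. Enah, an actin regulator that acts in Robo and netrin signalling, rose from 2743 to 6707 reads (log2 difference 1.22). Of the 4 that fell, Tiam1 and Ngef had the most reads. Tiam1, an exchange factor for Rac1, fell from 2341 to 1090 reads (log2 difference -1.17), and Ngef, an exchange factor bound to EphA receptors, fell from 373 to 138, a difference of -1.50. The Slit-Robo GTPase activating proteins Srgap1, Srgap2 and Srgap3 had values of 0.47, -0.15 and -0.03 and were not called. Among 20 further ligands, co-receptors and sheddases tested, 1 rose and 2 fell (15% called, against 14.7% of all genes), with a median of 0.01. L1cam, a neuronal adhesion molecule and partner of neuropilins, fell from 944 to 226 reads (log2 difference -2.13).

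Markers of other cell types were counted beside these results. In bulk RNA, fewer cells of a type and less RNA per cell cannot be told apart. Which cells the reads of a marker came from was not measured. Over all genes tested, 8.16% were called higher and 6.55% lower. Of the 15 fibroblast markers, 14 were tested, 7 fell and 2 rose, and their summed reads were 120046 in ctrl and 83806 in M2, giving a log2 ratio of -0.59. Postn alone held 72824 and 71795 of these reads. The other 14 fibroblast markers had 47222 and 12011 reads, a ratio of -2.04 (-2.07 to -2.02), and the median over the 14 markers tested was -1.54. Col5a2 fell from 12469 to 4341 reads, Col14a1 from 13318 to 1603 and Col6a3 from 9433 to 523. In contrast, Fbln1 rose from 62 to 485 reads and Dcn from 51 to 157, and Pdgfra (607 and 822) and Thy1 (257 and 253) were not called. Of 12 endothelial markers, 9 were tested, 2 rose and 3 fell. Their sum of 581 and 3454 reads came mainly from Flt1 (158 and 3263 reads) and Erg (300 and 32 reads). The other 10 held 123 and 159 reads, and among them Pecam1 rose from 33 to 76, while Cdh5 fell from 11 to 2 and Kdr from 11 to 0. Plvap (26 and 33 reads), Egfl7 (28 and 24), Vwf (4 and 12) and Esam (4 and 7) were not called. Tek, Tie1 and Emcn were at or under 3 reads in both libraries. Macrophage markers had 278 and 337 reads in sum, and of 4 tested Aif1 (3 and 40 reads) and Cd163 (2 and 30 reads) rose, while Cd68 had 170 and 165. In addition, 10 of the 15 macrophage markers were at or under 3 reads in M2, and Ptprc, Adgre1, Tyrobp and Fcer1g had 0 reads in both libraries. Of 15 neuron and glia markers, 10 were tested, 3 rose and 0 fell. Stmn2 rose from 12 to 1007 reads and Sox10 had 9278 and 7795, while Elavl4 had 0 reads in both libraries and Snap25 had 0 and 2. Luminal epithelium markers also moved, with 7 of 16 called lower (43.8%), among them Kit (15110 and 4973 reads) and Pgr (3195 and 575 reads). Krt7 (6227 and 14885 reads) was the 1 called higher. The luminal median was -0.65, and the summed reads were 148714 and 134942. Krt8, Epcam (20919 and 22821 reads) and Krt18 (14001 and 14225 reads) were not called. All 14 basal epithelium markers were tested, 1 rose and 1 fell, with a median of -0.17. Krt17 rose from 6051 to 16592 reads, and Oxtr fell from 8324 to 1920. Values were positive for 6 basal markers and negative for 8. The basal sum fell from 617726 to 570475 reads (-0.18 on the log2 scale), and Igfbp5, not called, held 337432 and 256840 of them. Whether this bears on the basal share reported by the paper was not tested. The part of these cell types in the axon guidance differences was not tested.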

How the data were processed

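Bulk RNA-seq was compared between 1 ctrl library and 1 M2 library, with groups taken from the labels. Raw counts of reads for each gene, with exon lengths, were deposited by the authors in 1 table. The column layout is that of featureCounts, but aligner, counter, strand use and read filters are not given in the sources used here, and the series text calls the assay a microarray. The submitters' processing notes name GRCm38 (mm10), and all 76 genes overlap their GENCODE M21 namesakes, 65 with identical ends.

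Genes with at least 10 summed reads were tested. Library sizes were scaled by TMM in edgeR 4.0.16 (R 4.3.3), with factors of 1.02 and 0.980. Log2 differences used a pseudocount of 1 read, intervals are 95% Clopper-Pearson limits of the share of reads, and each gene had a two-sided exact binomial test with Benjamini-Hochberg adjustment. The quasi-likelihood test of edgeR needs replicates and was not possible. TPM was computed from counts and exon lengths. The functions were tested on simulated data that held counting error only and no spread between cultures.

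Every axon guidance gene could be named, with intervals for called genes and the 2 with the highest level per family. From other lists, at most 4 called genes with the most reads could be named. Other names from those lists were chosen after their values were seen, and 1 downstream effector called higher is not reported here. Genes and lists were chosen with earlier results of these data known.
Coordinates are those of the table, on GRCm38.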

Additional observations from a re-analysis of the deposited data

How the results depend on the processing

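Alternatives were tried singly. The median log2 difference of the axon guidance genes stayed between -0.40 and -0.31, that of the ligands between -0.47 and -0.27 and that of the receptors between -0.40 and -0.20, under 3 other scalings, both filters, both pseudocounts, removal of a trend with gene length and, for the first median, a minimum of 100 reads, which was chosen after seeing the data. Without genes whose exons overlap another gene, also chosen after seeing the data, 6 were called higher and 10 lower. The median of all genes tested changed sign to 0.00028 with upper quartile scaling and to 0.0038 without the length trend.

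The counts moved by over 1.5 times under these alternatives. With the edgeR exactTest and an assumed biological coefficient of variation of 0.2, 6 axon guidance genes were called lower, and 964 and 691 of all genes were called higher and lower. With 0.4 there were 0 and 1 axon guidance genes and 175 and 130 of all genes. A 4-fold threshold left 2 and 3 axon guidance genes and 616 and 494 of all genes. At least 1 CPM in both libraries, which removes genes near 0 in one library, left 806 and 579 of all genes. Among the 33 axon guidance genes that were called or had the highest levels of their family, Slit3 (-0.98) and Epha7 (-0.97) fell short of 2-fold without the length trend. With 1 CPM required, 4 of 51 axon guidance genes were called higher and 10 lower. How many of all genes passed this filter is not given here, so no share of all genes stands beside these counts. No paired analysis was possible because there are no replicates to pair. For the same reason no library could be left out, and DESeq2 was not run. Depth limits Sema3a, Sema6b, Slit1, Epha5 and Dscaml1.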

Other observations

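Of the 7 axon guidance genes on chromosome 16, 5 were tested and 5 were called, Robo1 and Robo2 higher and Dscam, Epha3 and Ephb3 lower, a position noticed after the values were seen. Of all 573 genes tested on chromosome 16, 79 were called, which is 13.8%.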
